A study of Mus musculus with 8 samples.

Results

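The insulin-like growth factor family was followed here as 10 listed genes of 18141 present in either count table: the ligands Igf1 and Igf2, the receptors Igf1r and Igf2r, the binding proteins Igfbp2, Igfbp3, Igfbp4, Igfbp5 and Igfbp7, and Igfbpl1, a relative of Igfbp7. The members were chosen by name with earlier results of the same control and cKO libraries in view, and the measured values known then included the fold change and p-value of Igfbpl1 in astrocyte-like cells. The comparisons of control and cKO below therefore describe the members and are not independent evidence for their choice. All 10 were among the 17836 genes of one table, and 9 were among the 15769 genes of the other, which had no row for Igf2.

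The cells came from frontal isocortex of mice at postnatal day 7 and were sorted by flow cytometry for 1 of 2 fluorescent transgenes, Drd1a-tdTomato (called D1Tom here) or golli-τ-eGFP (called GTE here). All animals were Foxp2 flox/flox from lines backcrossed to C57BL/6J, and controls were littermates. Controls carried no Cre, and conditional knockouts (cKO) also carried Emx1-Cre, which acts in the lineage of cortical excitatory neurons and glia, so most interneurons, microglia and vessel cells are outside the lineage it targets. Foxp2 is a forkhead transcription factor of deep-layer cortical neurons. Each sort had 2 control and 2 cKO libraries. In D1Tom cKO 2 was male and the other 3 were female, and control 1 and cKO 1 were prepared on one day (batch 1) and control 2 and cKO 2 on another (batch 2). For GTE the batches are taken as unknown, because the labelled sexes do not match the batch text. In GTE cKO 2 was female and the other 3 were male. The labels tie libraries to mice of a stated sex but do not say how many mice each library held, so p-values measure the spread between libraries.

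Insulin-like growth factors are secreted proteins that promote growth, survival and differentiation of neurons and glia. Igf1r is the tyrosine kinase receptor that signals for both ligands, while Igf2r, also the mannose 6-phosphate receptor, takes Igf2 into the cell for degradation. The binding proteins hold the ligands outside the cell and can limit or prolong their action.

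Summed counts per library lay between 27323298 and 36379194 in D1Tom and between 4878370 and 6092396 in GTE, so GTE levels rest on fewer counts. A level summed over all cells moves both with the share of a cell type and with the level in its cells. GTE cKO 1 stood apart, with 1440 cells at a median of 2982 counts, against 2923 to 3948 cells at medians of 1085.5 to 1268 in the other GTE libraries. Pairs of libraries shared 1 to 27 cell barcodes. Clusters were named from marker genes: 19 of 25 in D1Tom, with 69.0% of the cells, and 9 of 15 in GTE, with 23.9%, and the others are given by number. The make-up of GTE cKO 1 differed too. It held 524 astrocyte-like and 365 oligodendrocyte precursor-like cells, against 157 to 281 and 99 to 160 in the other GTE libraries. Of the unnamed cluster 0 it held 84 cells, against 494 to 936. The part of this make-up in the GTE sums over all cells was not tested. Foxp2 itself was at 36.3 and 39.1 CPM (counts per 1000000 counts of the library or type) in D1Tom controls, against 26.5 and 19.4 in cKO. For GTE the control levels were 9.52 and 46.9 CPM, against 25.4 and 7.43 in cKO. Where 4 levels follow each other below, they are those of control 1, control 2, cKO 1 and cKO 2 in turn. The GTE values do not follow the genotype labels. The kit counts transcript ends, and the labels do not say which part of Foxp2 is deleted, so these levels do not check the deletion. Directions in GTE rest on the labels alone.

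The members lie on 7 chromosomes (RefSeq, GRCm38.p6, which the submitters' processing notes name beside mm10). Igf1 is on chromosome 10, Igf1r and Igf2 on chromosome 7, Igf2r on chromosome 17, Igfbp3 and Igfbp4 on chromosome 11, Igfbp7 on chromosome 5 and Igfbpl1 on chromosome 4. Igfbp2 (chr1:72824480-72852474, plus strand) and Igfbp5 (chr1:72858065-72874865, minus strand) are neighbours that run toward each other. Their start sites lie at the outer sides, and 5590 bases lie between their 3′ ends. They are shown here because they had different orders of cell types below. The 250 bases before each start are printed 5′ to 3′ on the gene's own strand, for Igfbp2 chr1:72824230-72824479 and for Igfbp5 chr1:72874866-72875115, with each GGGCGG or its reverse complement in capitals.
Igfbp2: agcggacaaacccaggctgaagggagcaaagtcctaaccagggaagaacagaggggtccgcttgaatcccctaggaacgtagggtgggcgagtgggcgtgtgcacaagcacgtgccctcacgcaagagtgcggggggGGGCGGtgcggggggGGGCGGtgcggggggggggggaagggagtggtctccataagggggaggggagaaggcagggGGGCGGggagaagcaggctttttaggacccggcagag
Igfbp5: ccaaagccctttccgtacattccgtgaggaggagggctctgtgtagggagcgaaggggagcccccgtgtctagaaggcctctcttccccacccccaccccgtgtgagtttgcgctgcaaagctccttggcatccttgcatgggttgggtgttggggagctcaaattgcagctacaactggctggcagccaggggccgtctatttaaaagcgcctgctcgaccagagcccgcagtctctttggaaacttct

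The Igfbp2 window held 3 GGGCGG matches and the Igfbp5 window 0, and 32.7% of the 32851 RefSeq windows of this length held at least 1 match on either strand. Igf1r, Igf2, Igf2r and Igfbp7 also had a window with this match. The forkhead motif TGTTTAC, searched on both strands, was in 0 of the 13 windows of the 9 members listed there, and in 3.17% of all windows. TATAAA, on both strands, was in the window of Igfbp4 and in 12.4% of all windows. A match is a run of letters and not a measured site.

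Over all cells no member passed edgeR's quasi-likelihood test (adjusted p under 0.05 over all genes tested) in either sort. In D1Tom 9 members were tested and 0 passed, where 0% of 14508 genes did by edgeR. Over all genes 320 had an unadjusted p under 0.05, and DESeq2 called 25. In GTE 9 were tested and 0 passed, where 0.0332% of 12042 genes did. The fitted log2 fold change of cKO over control was above 0 for 2 members in D1Tom and for 3 in GTE. Its median over the 9 members was -0.12 in D1Tom and -0.21 in GTE, against -0.01 and -0.05 over all genes tested. In D1Tom the cKO pair was the higher for Igfbpl1 alone (9.7% of all genes), and the lower for no member (13.7% of all genes). In GTE it was the higher for Igfbp3 and Igfbpl1 (19.6% of all genes) and the lower for Igfbp5 and Igfbp7 (6.67% of all genes). For the higher direction the member counts, 1 of 9 and 2 of 9, are near the shares over all genes.

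**Figure D1:**
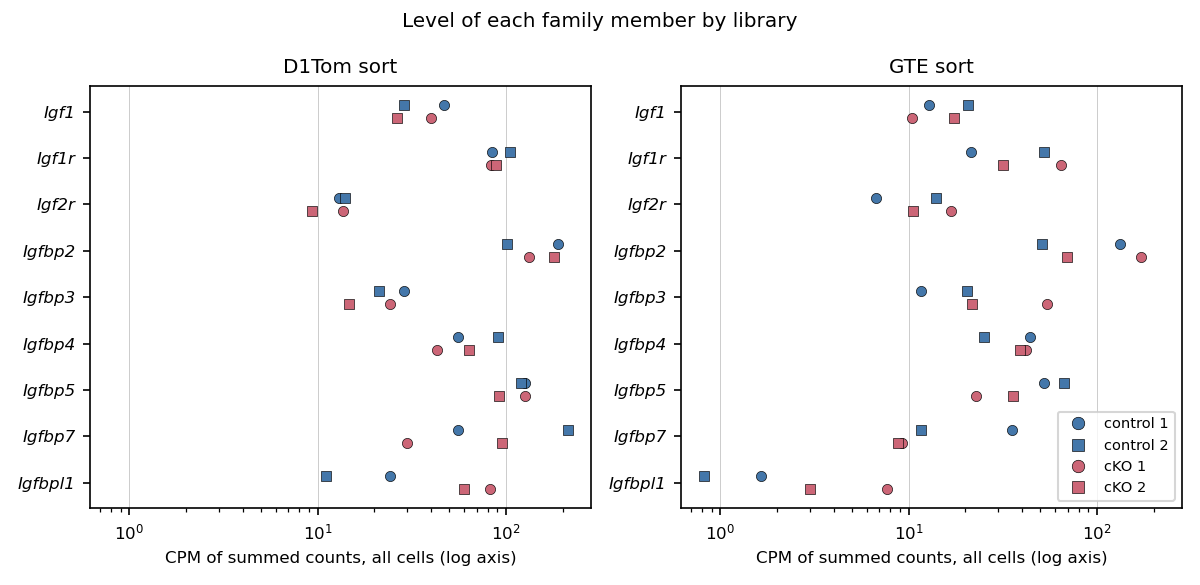
Level of each member in CPM of counts summed over all cells of a library (x axis, log scale), for the D1Tom and GTE sorts. Circles are replicate 1 and squares replicate 2, controls in blue and cKO in red. In D1Tom only Igfbpl1 has its 2 cKO libraries (59.7 and 82.2 CPM) apart from its controls (11.1 and 24.2 CPM). Igf2, at or near 0, is not drawn.

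Igf1, the main ligand in the postnatal brain, was highest in interneurons. In D1Tom cells like interneurons of caudal origin its levels were 612, 519, 426 and 491 CPM, all 4 above those of the next type. That type, the other interneuron-like cells, was at 241, 179, 141 and 188 CPM, and cells like interneurons of medial origin were at 128, 188, 195 and 145, so the second and the third overlapped. Microglia-like cells came after these, and their 4 libraries spread from 14.1 to 175 CPM. The caudal type alone held 52.9%, 32.2%, 48.2% and 23.9% of all Igf1 counts of the 4 libraries. Without these cells the libraries came to 22.9, 19.9, 21.8 and 20.4 CPM. The gap between the caudal type and the other interneuron-like cells depends on the clustering. At Leiden resolution 0.5 the caudal-type cluster had leading genes of both, such as Tac2 and Lamp5, and no other interneuron-like cluster was named beside the medial type. Its control mean of Igf1 was then 366.4 CPM in place of 565.5.

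Summed over the D1Tom cells, Igf1 was at 46.6, 28.8, 40.1 and 26.5 CPM, with the batch 1 libraries above the batch 2 libraries of either genotype. Its fitted log2 fold change was -0.12 ± 0.24 (SE; edgeR adjusted p = 0.998), with -0.22 in batch 1 and -0.12 in batch 2 as ratios of CPM. In the caudal type the cKO libraries were the lower pair, and the fit gave -0.30 ± 0.25 (edgeR adjusted p = 1). In GTE Igf1 was at 12.8, 20.7, 10.5 and 17.5 CPM and the groups overlapped. Its highest fitted GTE type, cluster 3, was at 24.7 and 30.9 CPM in controls, cKO 1 had no count in 44 cells, and cKO 2 lay between the controls (-0.44 ± 0.93, edgeR adjusted p = 1).

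In D1Tom cells like layer 6b or subplate neurons a few cells set the level of Igf1 and of Igfbp5 (chosen after their values were seen). Igf1 was at 10.7 and 16.4 CPM in controls, at 103 in cKO 1 and at 14.4 in cKO 2, and only cKO 1 was high. Of the 104 Igf1 counts of cKO 1, 1 cell held 74, and 3 of its 38 cells held 93.3%. Igfbp5 was at 119 and 107 CPM in controls, at 422 in cKO 1 and at 118 in cKO 2. Here 1 cell held 277 of the 425 counts of cKO 1, and 3 cells held 93.9%. The 6 interneuron markers in the table summed to 41.7 CPM in this library and to between 27.6 and 95.7 CPM in the other 3, and their part in the result was not tested. The fitted log2 fold changes were 2.1 ± 0.67 for Igf1 and 1.22 ± 0.43 for Igfbp5, each with edgeR adjusted p = 1. With the replicate number as a block edgeR's adjusted p was 2.75e-06 for Igf1 and 6.87e-08 for Igfbp5, in a fit that called 180 of 10098 genes against 1 without the block. Without cKO 1 the log2 fold changes were 0.14 and 0.10.

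Igf2, the ligand known mainly from the fetus and from the coverings and vessels of the brain, was at 0 CPM in 3 D1Tom libraries. In cKO 2 it had 3 counts, in 3 endothelial-like cells, and it entered no test.

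Igf1r, the signalling receptor, was counted in every named D1Tom type. The highest was endothelial-like cells, at 195, 282, 271 and 312 CPM. Cells like layer 6 corticothalamic neurons overlapped with them at 303, 150, 380 and 154 CPM, though only 6 to 68 cells per library carried that name, and clusters 3 and 19 overlapped in turn. The layer 6 type and cluster 3 were made of low-count cells, with medians of 2657 and 3119 counts. Relative to the median of their library, their median cells were at 0.338 and 0.389. The part of this depth in the levels was not tested. Astrocyte-like cells were at 42.3, 59.4, 46.2 and 46.0 CPM. The order of these types for Igf1r is thus not settled beyond the spread between libraries.

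In the D1Tom sums Igf1r was at 84.1, 105, 83.6 and 88.0 CPM, the smallest ratio of highest to lowest library among the 9 tested members of this sort, and the fit gave -0.08 ± 0.20 (edgeR adjusted p = 0.998). In cluster 3, its highest fitted type, it was at 204, 152, 186 and 140 CPM, with -0.15 ± 0.31 (edgeR adjusted p = 1). In GTE it was at 21.5, 52.3, 64.1 and 31.7 CPM over all cells. There the log2 fold change was -0.02 ± 0.52 (edgeR adjusted p = 0.998) and became 0.38 when only library totals were used for scaling, a change that moved the median of all genes from -0.05 to 0.38. In dividing-like cells, its highest fitted GTE type, it was at 49.7, 64.0, 66.9 and 26.2 CPM (-0.50 ± 0.72, edgeR adjusted p = 0.962).

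Igf2r, the clearance receptor, was low throughout. Endothelial-like D1Tom cells were first at 38.6, 31.8, 38.7 and 25.8 CPM, overlapping with cluster 3. In cluster 3 it was at 34.6, 22.4, 19.5 and 15.6 CPM, the 2 cKO levels being the lowest, and the fit gave -0.76 ± 0.46 (edgeR adjusted p = 1). The groups also did not overlap, with cKO lower, in cluster 2 and in dividing-like and interneuron-like cells, named after their values were seen. That makes 4 of the 11 D1Tom types where Igf2r was tested, an order that 13% of all tests of a gene in a D1Tom type had. The types share the same 4 libraries and are not replicates, and Igf2r passed in 0 of the 11. Summed over D1Tom cells it came to 12.9, 13.9, 13.7 and 9.30 CPM, and only cKO 2 was low (log2 fold change -0.18 ± 0.20, edgeR adjusted p = 0.998). In GTE it was at 6.73, 13.9, 16.8 and 10.6 CPM, with 0.04 ± 0.56 (edgeR adjusted p = 0.997).

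Igfbp2, a binding protein made by glia and progenitors, was highest in astrocyte-like cells of both sorts, among types with at least 30 control cells. In D1Tom these were at 625, 303, 403 and 399 CPM, with control 2 the lowest and control 1 the highest. Dividing-like cells followed at 343, 255, 246 and 250 CPM, overlapping with the astrocyte-like cells but above all 4 libraries of the third type, cluster 2. In GTE astrocyte-like cells were at 353, 91.0, 375 and 148 CPM, so both libraries numbered 1 were high. Astrocyte-like cells held 45.3% to 66.3% of the Igfbp2 counts of each D1Tom library.

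The D1Tom sums of Igfbp2 gave 189, 101, 132 and 179 CPM. Its CPM ratio of cKO to control went opposite ways in the 2 batches, with log2 values of -0.52 in batch 1 and 0.83 in batch 2, and the pooled fit gave 0.20 ± 0.34 (edgeR adjusted p = 0.998). Within D1Tom astrocyte-like cells it was -0.16 ± 0.35 (edgeR adjusted p = 0.999), with the cKO libraries between the 2 controls. In GTE the levels were 133, 51.0, 171 and 69.1 CPM, and the log2 fold change of -0.22 ± 0.56 (edgeR adjusted p = 0.985) turned to 0.39 with library totals alone.

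Igfbp3, a carrier of both ligands, was highest in D1Tom cells like interneurons of medial origin, at 74.6, 66.1, 85.6 and 41.5 CPM. Cells like oligodendrocyte precursors overlapped with them at 80.2, 27.2, 59.6 and 25.8 CPM, and in these the batch 1 libraries were higher than the batch 2 libraries. In the medial type the log2 fold change was -0.09 ± 0.35 (edgeR adjusted p = 0.999). The D1Tom sums put Igfbp3 at 28.6, 21.3, 24.2 and 14.8 CPM (-0.31 ± 0.22, edgeR adjusted p = 0.998).

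In GTE Igfbp3 was at 11.7, 20.5, 54.0 and 21.8 CPM, with cKO 2 barely above control 2, and the log2 fold change was 0.78 ± 0.52 (edgeR adjusted p = 0.984). Dividing-like cells, its highest fitted GTE type, were at 22.1, 71.1, 99.4 and 43.7 CPM, and the groups overlapped (0.46 ± 0.73, edgeR adjusted p = 0.965). In cells like oligodendrocyte precursors, named after their values were seen, it was at 10.6, 52.5, 130 and 69.6 CPM with the cKO pair higher (1.51 ± 0.56, edgeR adjusted p = 1). The control 1 level there rests on 4 counts. Igfbp3 had a fold change above 0 in all 4 GTE types where it was tested, but the types share the same libraries and are not replicates. In clusters 0 and 3 the log2 value was smaller than its SE, at 0.413 ± 0.795 and 0.37 ± 0.876. The change over all cells differed from that in D1Tom by 1.10 ± 0.47 on the log2 scale in a model of genotype and sort over all 8 libraries, at an unadjusted p of 0.0409 and an edgeR adjusted p of 0.941. That model called 0 of 14026 genes, with 452 at an unadjusted p under 0.05.

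Igfbp4, a binding protein that restrains Igf1 until a protease cuts it, was highest in endothelial-like and microglia-like cells. Endothelial-like D1Tom cells were at 485, 503, 422 and 459 CPM, and microglia-like cells at 448, 226, 240 and 244. In GTE microglia-like cells were first among types with at least 30 control cells, at 308, 273, 410 and 411 CPM from 24 to 38 cells per library, and all 4 levels lay above those of the next type. These types were not fitted, since some libraries held fewer than 30 of their cells.

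In the D1Tom sums Igfbp4 was at 55.9, 91.2, 43.1 and 63.8 CPM (-0.39 ± 0.36, edgeR adjusted p = 0.998), and the log2 ratio of CPM was -0.37 in batch 1 and -0.52 in batch 2. Without endothelial-like cells the values were 47.5, 44.6, 36.3 and 39.4 CPM, and the cKO pair was the lower. In astrocyte-like cells, named after their values were seen, Igfbp4 was at 43.8 and 51.8 CPM in controls and at 28.7 and 30.3 in cKO, with a log2 fold change of -0.66 ± 0.24 and an unadjusted p of 0.0332 (edgeR adjusted p = 0.999). In its highest fitted type, cells like oligodendrocyte precursors, it was at 102, 50.6, 87.7 and 46.5 CPM (-0.15 ± 0.37, edgeR adjusted p = 1). In GTE it was at 44.3, 25.0, 42.0 and 38.9 CPM (-0.21 ± 0.52, edgeR adjusted p = 0.985), a direction that turned to 0.22 with library totals alone.

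Igfbp5, a binding protein found in neurons and glia, was highest in D1Tom in 2 unnamed clusters. Cluster 3, led by Slc18a2 and Runx2, was at 488, 182, 241 and 276 CPM, and cluster 5, led by Ntf3 and Inhba, was at 295, 238, 315 and 296, so the first overlapped with the second. The median cell held 3119 counts in cluster 3 and 20624 in cluster 5. Cells like layer 5 pyramidal tract neurons followed at 190, 197, 257 and 157 CPM and overlapped with cluster 5. The order differed from that of its chromosomal neighbour Igfbp2, which was at only 41.8, 44.9, 32.8 and 83.2 CPM in cluster 3. Summed, the D1Tom cells had Igfbp5 at 126, 121, 126 and 92.3 CPM, and 3 of the 4 libraries were nearly level (log2 fold change -0.12 ± 0.15, edgeR adjusted p = 0.998). In cluster 3 it was -0.42 ± 0.38 (edgeR adjusted p = 1).

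In GTE Igfbp5 was lower in both cKO libraries: 52.5 and 66.8 CPM in controls (mean 59.7 ± 10.1, SD, n = 2) and 22.9 and 35.9 in cKO (mean 29.4 ± 9.20, SD, n = 2). The log2 fold change was -1.29 ± 0.54, with an unadjusted p of 0.0173 and an edgeR adjusted p of 0.885. It was tested in 7 GTE types, and in all 7 the cKO pair was the lower, an order that 10.1% of all tests of a gene in a GTE type had. This was noticed after the values were seen. Astrocyte-like cells were at 71.8 and 83.7 CPM in controls and at 15.7 and 44.8 in cKO (-1.54 ± 0.57, edgeR adjusted p = 0.999), and the log2 fold change ran from -2.49 to -0.91 when a library was left out. These cells join 2 clusters that were filled unevenly: cluster 6 held 102 and 35 control cells and 511 and 33 cKO cells, and cluster 7 held 55 and 246 control cells and 13 and 142 cKO cells. The part of this split in the Igfbp5 level was not tested. Cluster 0, which held the most cells and was led by neuronal genes such as Mef2c and Neurod6, was at 59.2 and 72.3 CPM in controls and 38.2 and 49.0 in cKO (-0.76 ± 0.61, edgeR adjusted p = 1).

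The other 5 GTE types ran from -0.57 to -1.36 in log2 fold change, and in none did Igfbp5 pass the test. The types of a library share its preparation and are not replicates, and several rest on few counts, such as 1 count for cKO 1 in cluster 2, 1 in cluster 4 and 0 in cluster 1. In D1Tom the fitted fold change of Igfbp5 was above 0 in 9 of 13 types. The test of the difference between the sorts over all cells gave -1.17 ± 0.57 (unadjusted p = 0.0658, edgeR adjusted p = 0.941). GTE cKO 1, the library with few and deep cells, was the lowest in 6 of the 7 types. Without it the log2 fold change over all cells was -0.73, and without cKO 2 it was -2.13.

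**Figure D2:**
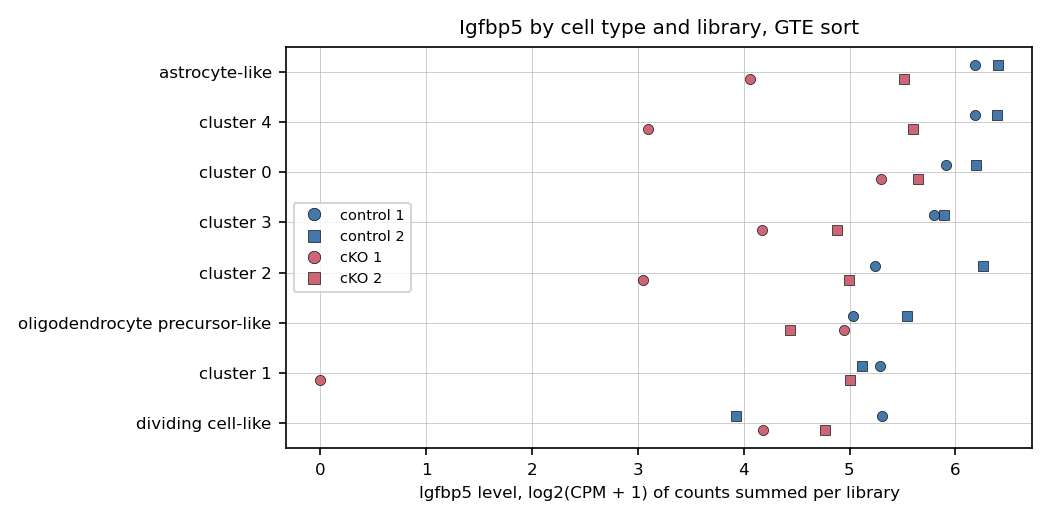
Igfbp5 level in the 8 fitted GTE cell types, as log2(CPM + 1) of the counts summed per library. Circles are replicate 1 and squares replicate 2, controls in blue and cKO in red. The red points lie left of the blue points in every type except dividing-like cells, where Igfbp5 did not pass the filter on low counts.

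Igfbp7, a binding protein of vessel walls with low affinity for the ligands, came mostly from endothelial-like cells. In D1Tom these were at 2675, 2028, 1461 and 1523 CPM, with the cKO pair lower, and they held 86.4% to 96.3% of the Igfbp7 counts of a library. The next type, cluster 3, reached at most 29.9 CPM. Endothelial-like cells numbered 24, 150, 20 and 89, too few for the fit. Markers of mural cells, the contractile cells of the vessel wall, summed to 5287, 3518, 2948 and 3496 CPM in them, so the cluster also holds RNA of that type, and both the mural sum and the sum of the 9 endothelial markers (5964, 4868, 3722 and 4335 CPM) were lower in cKO. Gene by gene, 5 of the 8 mural and 7 of the 9 endothelial markers overlapped between the groups, and the 2 endothelial markers lower in both cKO libraries were Cldn5 (3699, 2224, 1634 and 1854 CPM) and Emcn (246, 127, 85.2 and 104 CPM). The part of this shift in the Igfbp7 level was not tested.

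The D1Tom sums put Igfbp7 at 55.9, 214, 29.6 and 95.3 CPM (-1.02 ± 0.82, edgeR adjusted p = 0.998), and the order of the 4 libraries was that of the number of endothelial-like cells. Without control 2 the log2 fold change was 0.33. The CPM ratio of cKO to control was -0.91 on the log2 scale in batch 1 and -1.17 in batch 2. Without endothelial-like cells the libraries were at 4.51, 8.91, 4.11 and 7.15 CPM and the groups overlapped. In GTE it was at 35.5, 11.7, 9.27 and 8.84 CPM (-1.86 ± 0.56, unadjusted p = 0.00129, edgeR adjusted p = 0.596). There 9, 5, 0 and 3 cells were endothelial-like, the 9 endothelial markers summed to 82.6, 16.0, 0.592 and 16.1 CPM over all cells, and 8 of the 9 were at 0 in cKO 1. Without the endothelial-like cells the libraries were at 5.32, 3.70, 9.27 and 2.49 CPM, with the groups overlapping. Without control 1 the log2 fold change over all cells was -0.52.

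Igfbpl1, a secreted relative of Igfbp7 known from newborn neurons, was highest in neuroblast-like cells. In D1Tom these were at 868, 194, 939 and 467 CPM, so both replicates 1 were high and the groups overlapped. Control 2 was here also the lowest library for every marker of the neuroblast list, such as Dlx5 (252, 46, 240 and 158 CPM) and Sp8 (305, 88.6, 272 and 236 CPM). The part of this in the Igfbpl1 level was not tested. Neuroblast-like cells numbered 26, 24, 161 and 198, which is 0.811%, 1.00%, 5.73% and 6.43% of the cells, too few in controls for the fit. They held 16.8% and 14.8% of the Igfbpl1 counts in controls and 65.8% and 72.9% in cKO. Cells like interneurons of caudal origin were second, at 163, 84.0, 299 and 88.0 CPM. In every other type with at least 20 cells in each library Igfbpl1 was at most 46.6 CPM.

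Summed over D1Tom cells, Igfbpl1 was at 24.2 and 11.1 CPM in controls (mean 17.7 ± 9.31, SD, n = 2) and at 82.2 and 59.7 in cKO (mean 70.9 ± 15.9, SD, n = 2). Its log2 fold change was 2.08 ± 0.34, and the log2 ratios of CPM were 1.76 in batch 1 and 2.43 in batch 2. It ranked 11 by p among all genes (unadjusted p = 0.00114) and did not pass edgeR's test (adjusted p = 0.998). DESeq2, which called 0.144% of 17319 genes, gave an adjusted p of 2.13e-06 for it. Without the neuroblast-like cells the libraries were at 20.3, 9.51, 29.8 and 17.9 CPM, the groups overlapped, and the log2 fold change was 0.74. Among the 8 neuroblast markers, Dlx1, Dlx2, Dlx5, Sp8 and Sp9 were also higher in both cKO libraries than in both controls over all cells, Cd24a was lower, and Dcx and Sox11 overlapped. Of all genes tested, 9.7% were higher in both cKO libraries and 13.7% lower.

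Within D1Tom types the Igfbpl1 differences had both signs. Types other than astrocyte-like cells and the caudal type are named here after their values were seen. It was tested in 12 of the 13 fitted types and passed in 0 of them, where 0.00382% of all tests of a gene in a D1Tom type did. The cKO pair was the higher in 6 types (12.9% of all such tests) and the lower in 3 (13% of all such tests). Astrocyte-like cells were at 2.06 and 2.59 CPM in controls and at 14.9 and 5.90 in cKO (log2 fold change 2.16 ± 0.53, unadjusted p = 0.00585, edgeR adjusted p = 0.999), and without control 2 edgeR's adjusted p was 0.000941, in a fit that called 1224 of 12440 genes in these cells against 0 of 12080 with all libraries. Interneuron-like cells were at 4.37 and 6.17 CPM in controls and 23.5 and 35.9 in cKO (2.52 ± 0.54, edgeR adjusted p = 0.999). Dividing-like cells were at 7.26 and 5.82 CPM in controls and 30.2 and 15.2 in cKO (1.81 ± 0.44, edgeR adjusted p = 1).

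Cells like layer 5 pyramidal tract neurons had the largest Igfbpl1 value of the fit, 3.33 ± 0.80 (edgeR adjusted p = 0.996), from 1.71 and 1.78 CPM in controls, which is 3 counts in each library, against 8.16 and 30.6 in cKO. Of the 29 counts of cKO 2, 3 of its 56 cells held 79.3% and 1 cell held 11, and 3 cells held 69.2% of the 13 counts of cKO 1. When a library was left out the value ran from 2.12 to 4.08. With the replicate number as a block edgeR's adjusted p for it was 0.0239, in a fit that called 17 of 10229 genes against 0 without the block. Cells like oligodendrocyte precursors were at 11.3 and 9.89 CPM in controls and 20.1 and 22.5 in cKO (1.06 ± 0.34, edgeR adjusted p = 1), and cells like interneurons of medial origin at 15.2 and 14.0 against 23.1 and 45.7. The reverse order held in cluster 3, at 46.6 and 22.4 CPM in controls against 21.3 and 15.6 in cKO (-0.98 ± 0.45), in cells like layer 6b or subplate neurons, at 29.2 and 14.7 against 13.9 and 9.26 (-0.95 ± 0.46), and in cluster 5, at 26.9 and 15.9 against 14.6 and 12.4 (-0.67 ± 0.33), each with edgeR adjusted p = 1. In caudal-type cells, its highest fitted type, it was 0.68 ± 0.44 (edgeR adjusted p = 1).

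Neuroblast markers were read gene by gene in astrocyte-like, interneuron-like and dividing-like cells, and in cells like oligodendrocyte precursors or layer 5 pyramidal tract neurons. In all of these types Igfbpl1 was higher in both cKO libraries. The markers were not read in this way in the medial and caudal types. Nor were they in the types with the reverse order, cluster 3, cluster 5 and cells like layer 6b or subplate neurons. In astrocyte-like cells 4 of the 8 (Dlx1, Dlx2, Dlx5 and Sp9) were higher in both cKO libraries than in both controls, with Dlx1 at 4.66, 7.77, 18.2 and 17.9 CPM, and none was at 0 in any library. The same count of 4 of 8 held in dividing-like cells and in cells like oligodendrocyte precursors, and it was 1 of 8 in interneuron-like cells. Of all tests of a gene in a D1Tom type, 12.9% had this order. The markers share the same 4 libraries, so they are not separate observations. In cells like layer 5 pyramidal tract neurons Dlx2 was higher in both cKO libraries, Cd24a was lower in both and 6 of 8 overlapped. There cKO 2, which had the highest Igfbpl1 level, was also the highest for Dlx1 (0.571, 8.89, 2.51 and 43.2 CPM), Sp9 (1.71, 1.19, 1.26 and 29.5 CPM) and Sp8 (0.571, 0.593, 0 and 20.0 CPM). The summed level of the list overlapped between the groups in astrocyte-like cells, at 463, 969, 722 and 964 CPM. The part of neuroblast RNA in the Igfbpl1 levels of these types was not tested. In GTE, which had no neuroblast-like cluster, Igfbpl1 was at 1.64 and 0.820 CPM in controls and 7.69 and 3.01 in cKO (1.54 ± 0.81, edgeR adjusted p = 0.949). These levels rest on 10 and 4 counts in controls and on 39 and 17 in cKO. Igfbpl1 passed the filter on low counts in none of the 8 fitted types. With GTE cells classed one by one from marker counts, a neuroblast-like class did appear. It was the first named type for Igfbpl1, at a control mean of 32.6 CPM.

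**Figure D3:**
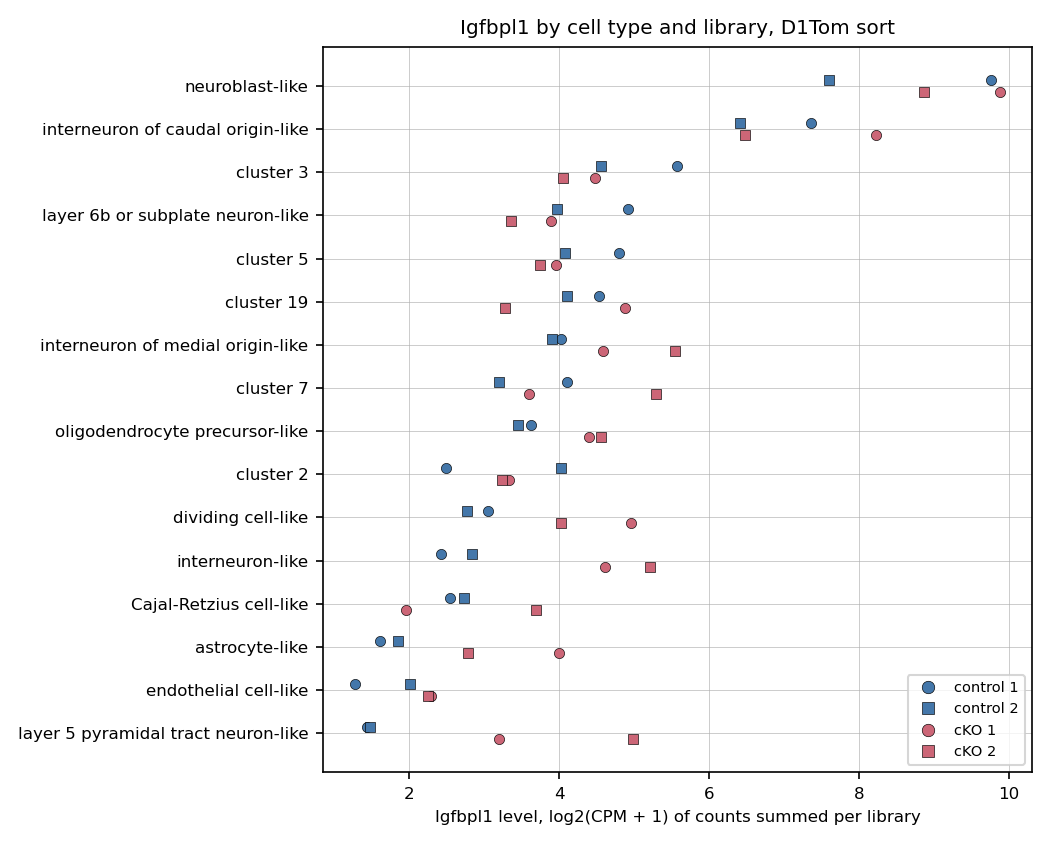
Igfbpl1 level in D1Tom cell types with at least 20 cells in every library, as log2(CPM + 1) of the counts summed per library, ordered by the control mean. Circles are replicate 1 and squares replicate 2, controls in blue and cKO in red. Neuroblast-like cells are highest in both genotypes, red lies right of blue in 6 fitted types such as astrocyte-like cells, and left of it in clusters 3 and 5 and in layer 6b or subplate neuron-like cells.

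Across the D1Tom types each member had its own order of levels, described on control libraries. For 4 members the first type did not overlap with the next over the control libraries: Igf1 in cells like interneurons of caudal origin, Igfbp4 and Igfbp7 in endothelial-like cells and Igfbpl1 in neuroblast-like cells. For Igf1r and Igf2r (first in endothelial-like cells), Igfbp2 (astrocyte-like), Igfbp3 (interneurons of medial origin) and Igfbp5 (cluster 3) the first type overlapped with the next. Without the highest-count cells Igf1r was first in cells like layer 6 corticothalamic neurons. With cells classed one by one from marker counts, the first named type was radial progenitor-like for Igfbp2 and erythroid-like for Igfbp3 and Igfbp7. For Igfbp5 it was upper layer neuron-like, at a control mean of 350 CPM, in place of layer 5 pyramidal tract neuron-like at 194 CPM. Igfbpl1 stayed first in neuroblast-like cells, but at a control mean of 153 CPM in place of 531. The genes with the most similar levels to a member, by Pearson correlation of log2(CPM + 1) over 24 clusters and 12722 genes that share the same libraries, are given as a description. For Igf1 they were Prok2 (0.82), Gad1 (0.80) and Maf (0.79), for Igfbp2 they were Fabp7 (0.94), Tlcd1 (0.93) and Hes5 (0.92), and for Igfbp7 they were Cldn5 (0.94), Fn1 (0.93) and Kdr (0.91). For Igfbpl1 they were Brwd1 (0.76), H2-M5 (0.76) and Hes6 (0.74), for Igfbp4 Slc7a7 (0.82), Il4ra (0.81) and Lrrk1 (0.81), and for Igfbp5 Syndig1 (0.79), Epha5 (0.78) and Nln (0.78). For Igf1r they were Pcnx (0.85), Tecpr1 (0.84) and Inf2 (0.82), and for Igf2r Extl3 (0.80), Esyt2 (0.78) and Tfrc (0.78). Igfbp3 had the weakest likeness, to Inpp4b (0.68), Sfrp2 (0.68) and Klf12 (0.62).

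**Figure D4:**
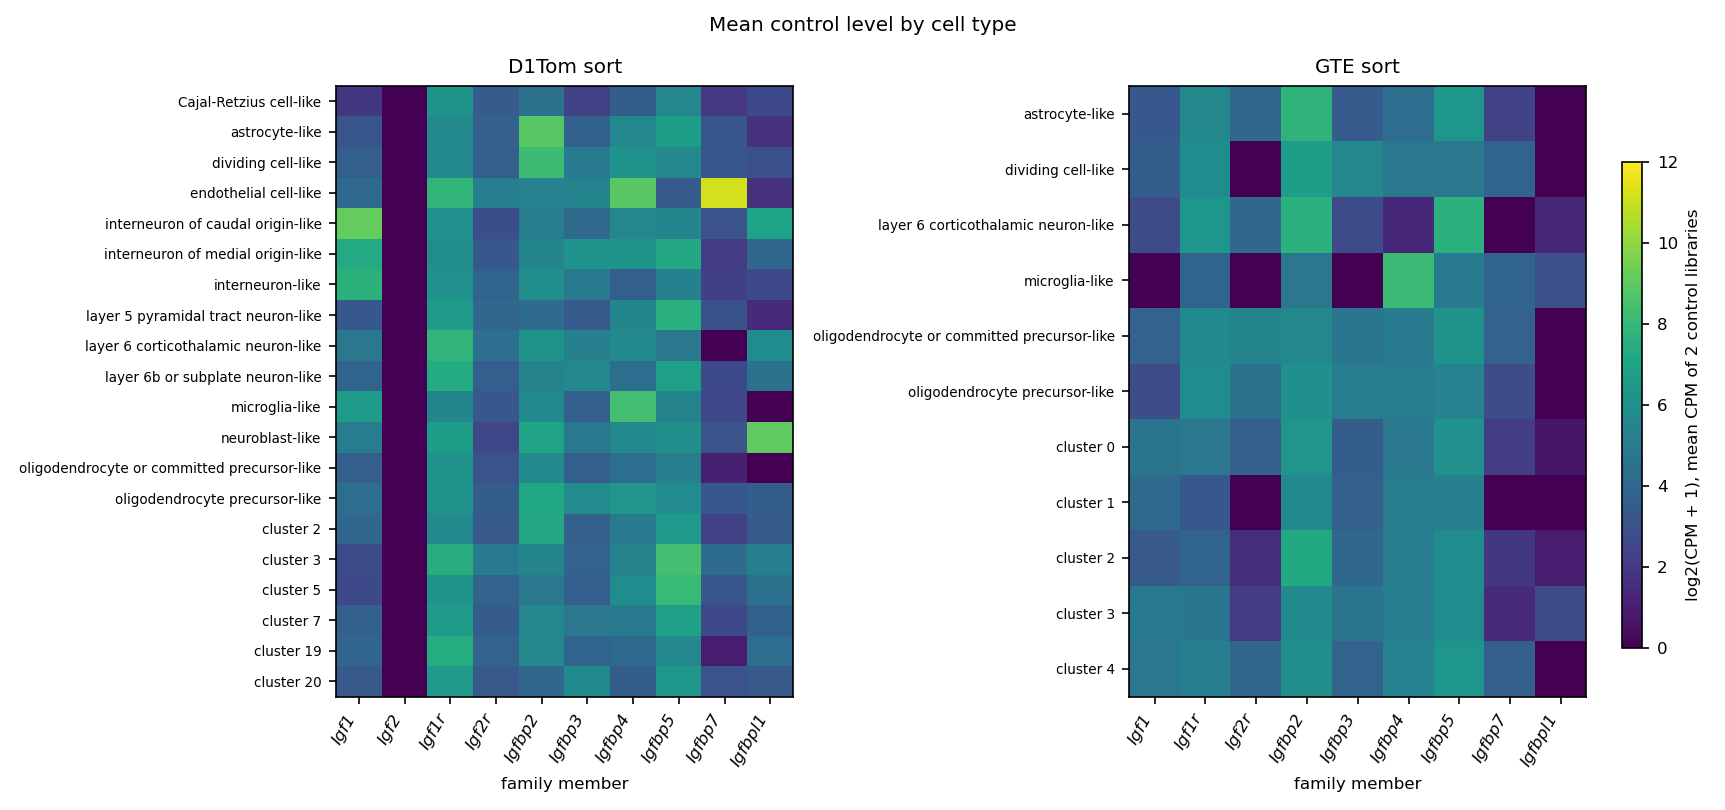
Mean level over the 2 control libraries of each member (columns) in each cell type with at least 30 control cells (rows), as log2(CPM + 1) on a colour scale, for D1Tom and GTE. The highest value is Igfbp7 in D1Tom endothelial-like cells (mean 2352 CPM), and Igf2 is at 0 throughout.

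Over all members and fitted types, D1Tom had 104 tests of a member in a type, of which 0 passed. An unadjusted edgeR p under 0.05 was found in 10, and 6 of these were Igfbpl1. Its value in astrocyte-like cells was known when the members were chosen. Over all genes of a fitted type this number ran from 42 of 11618 (cells like oligodendrocyte precursors) to 361 of 10098 (cells like layer 6b or subplate neurons). The cKO pair was the higher in 10.6% of the 104 (12.9% of all tests of a gene in a D1Tom type) and the lower in 18.3% (13% of all such tests). In GTE 37 tests gave 0 passes, where 0.00809% of all tests of a gene in a GTE type passed, and the cKO pair was the higher in 13.5% (16.8% of all such tests) and the lower in 18.9% (10.1% of all such tests). The 7 GTE cases below were all Igfbp5.

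**Figure D5:**
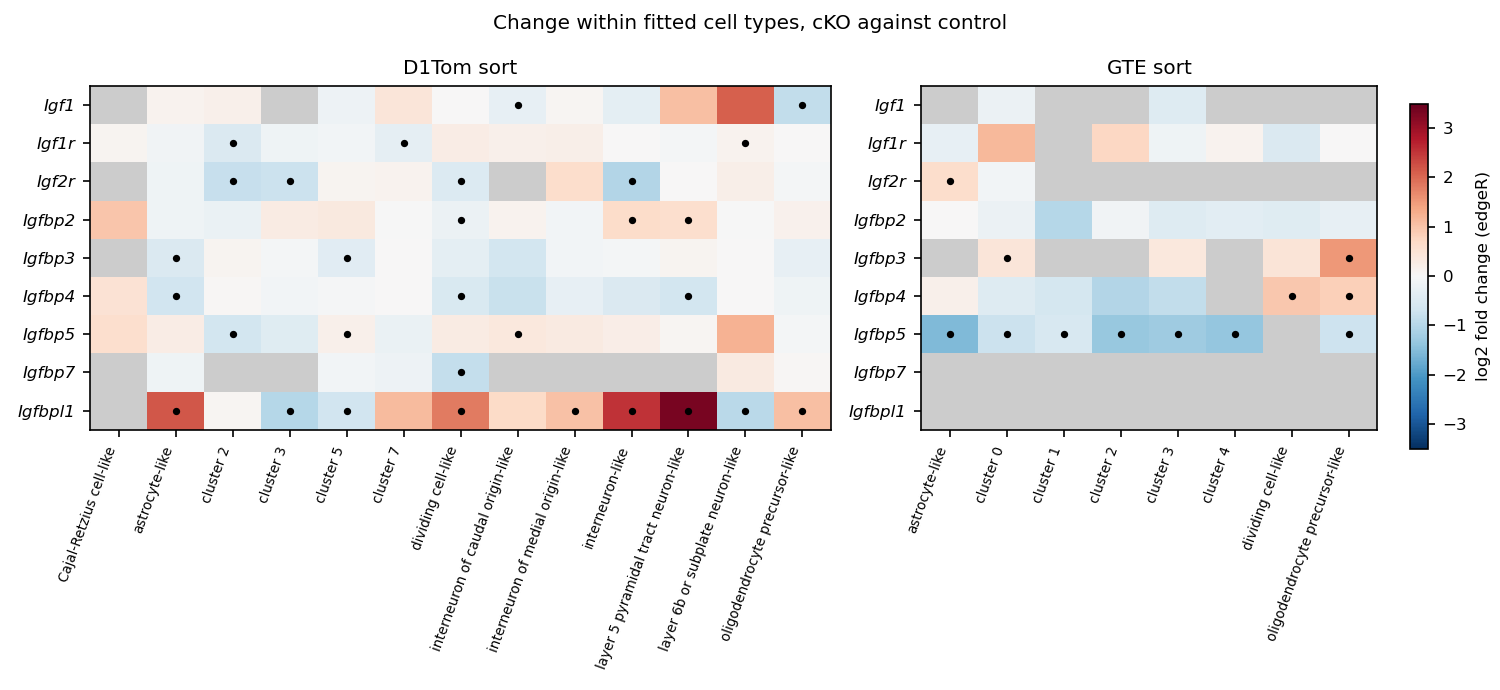
Fitted log2 fold change of cKO over control for each member (rows) in each fitted cell type (columns), on a colour scale from blue (lower in cKO) to red (higher). A black dot marks a type where the 2 libraries of one genotype lie apart from those of the other, and grey marks a gene that did not pass the filter on low counts. The Igfbpl1 row of D1Tom holds the widest range, from -0.98 to 3.33, and the Igfbp5 row of GTE is blue in all 7 tested types.

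The other genes of the pathway (insulin receptors and their substrates, proteases that cut binding proteins, and the kinases downstream) were read from a list of 45. In D1Tom 41 were tested over all cells, 0 passed, 1 had an unadjusted p under 0.05, and the fit was above 0 for 23 and below 0 for 18, with a median log2 fold change of 0.03. The smallest p was that of Pappa2, a protease that cuts Igfbp5 and Igfbp3, at 5.14, 6.06, 3.76 and 2.78 CPM, with both cKO libraries lower (-0.73 ± 0.28, unadjusted p = 0.0438, edgeR adjusted p = 0.998). In GTE 34 were tested, 0 passed, none had an unadjusted p under 0.05, and 15 lay above 0 and 19 below, with a median of -0.15. The smallest p there was that of Igf2bp3, an RNA-binding protein named for its Igf2 target, at 22.0, 25.8, 91.9 and 34.3 CPM (0.89 ± 0.52, unadjusted p = 0.0906, edgeR adjusted p = 0.973), and cKO 1 was by far the highest.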

How the data were processed

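Single cells from postnatal day 7 cortex were sequenced in 8 libraries, 2 control and 2 cKO in each of 2 sorts. The deposited tables hold whole-number counts of UMIs (unique molecules) per gene and cell. Per the submitters' processing notes, bcl2fastq 2.17.1.14, Cell Ranger 2.1.1, FastQC 0.11.5, UMI-tools 0.5.4, STAR 2.5.2b, Subread 1.6.2 with featureCounts and SAMtools 1.6 were used, with no role given for each. The deposited cell tables give the mitochondrial and ribosomal fraction of each cell's counts; how the authors made it is not given in the sources used here. In some libraries a count of 2 is more frequent than a count of 1, and the reason is not given in the sources used here.

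Cells were mapped to libraries through the deposited cell table. Cells with at least 500 counts (143 GTE cells had fewer) were clustered in each sort with scanpy 1.11.5 and leidenalg 0.10.2 (2000 variable genes, 30 principal components, 20 neighbours, resolution 1), with the members and the other pathway genes left out. A cluster was named "X-like" when at least 3 markers of a list were at 2-fold or more and in at least 10% of its cells, and no other list had more markers among its 10 leading genes. The median fold of the list also had to be at least 2. At least 1 marker had to be among the leading genes, or else 2/3 of the list at 2-fold. Lists tied on leading markers gave no name, except oligodendrocytes with their committed precursors. Very shallow clusters without a leading marker stayed unnamed. Several excitatory clusters stayed unnamed, so names may differ from the study's own. No doublet caller was run; cells with the highest counts (0.8% per 1000 cells) were left out as an alternative. Sums per library, and per library and type with at least 30 cells in each of 4 libraries, were tested with edgeR 4.0.16 in R 4.3.3 (quasi-likelihood, TMM, filterByExpr, Benjamini-Hochberg over all genes; threshold 0.05), without a replicate block. Data over all cells were simulated at the estimated dispersion and with no batch effect (14508 genes for D1Tom and 12042 for GTE). In D1Tom edgeR recovered 0% of 62, 27.1% of 70 and 73.5% of 68 genes changed 1.5-, 2- and 4-fold, with 22 false calls. In GTE it recovered 1.3% of 76, 0% of 61 and 38.1% of 63, with 1 false call. A gene that did not pass may thus still differ, and a gene that passed may be a false call. Fold changes are log2 of cKO over control, ± SE.

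The members and lists were chosen with earlier results of these data known. Each member is described over all cells, and its change in its highest fitted type, in any type where it passes the threshold, and for Igfbpl1 in astrocyte-like cells; others are marked as chosen after their values were seen. Alternatives were RLE factors, no filter, the replicate block, DESeq2 1.42.0, leaving out each library, and other cluster settings. Leaving out neuroblast-like cells, library totals alone and a crossed GTE pairing were added after seeing the data. In D1Tom equal numbers share a labelled preparation day, and same-numbered libraries deviated together (correlation 0.499 over 14508 genes); in GTE the labels do not establish whether equal numbers share a day, and no pairing was used.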

Additional observations from a re-analysis of the deposited data

Results flagged for a closer look

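In D1Tom 4 members had one fitted type with both cKO libraries above both controls and another with the reverse order. The difference between the types was not tested, and each value is a log2 fold change of cKO over control. For Igf1r it was 0.12 in cells like layer 6b or subplate neurons and -0.50 in cluster 2. For Igfbp2 it was 0.63 in interneuron-like cells and -0.22 in dividing-like cells. For Igfbp5 it was 0.37 in cells like interneurons of caudal origin and -0.65 in cluster 2. For Igfbpl1 it was 3.33 in cells like layer 5 pyramidal tract neurons and -0.98 in cluster 3. None of these 8 values passed edgeR's test over all genes, and among all tests of a gene in a D1Tom type the first order occurred in 12.9% and the reverse in 13%.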

How the results depend on the processing

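On simulated GTE counts of the same depth and number of libraries, edgeR recovered 38.1% of 4-fold changes at the estimated dispersion and 95.2% at a dispersion set lower. The number of genes called over all D1Tom cells (0) was 1 with the replicate block, 25 by DESeq2 and 0 to 6 when a library was left out (6 without control 2, 5 without cKO 1). Over D1Tom types (5) it was 275 with no filter, 433 with the replicate block, 22 by DESeq2 and 157 to 1866 when a library was left out, where the lone library of a group is assumed to vary like the other group. Over all GTE cells (4) it was 18 with no filter, 0 with the replicate block, 0 with library totals alone, 2 by DESeq2, 0 without the highest-count cells and 1 to 27 when a library was left out. Over GTE types (4) it was 39, 0, 0, 1 and 8 under the same settings in turn, and 13 to 2212 when a library was left out. Whether the GTE numbers pair the libraries is not known (correlation of same-numbered deviations -0.347), and with the crossed pairing 24 genes were called over all cells and 9 over types. With cells classed one by one from marker counts, 5 of 9 members kept their leading named type in D1Tom and 1 of 9 in GTE.

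No member changed its call over all cells, except Igfbpl1 in D1Tom by DESeq2 (2.13e-06). In types, Igfbpl1 passed without control 2 in astrocyte-like cells (0.000941), with no filter in interneuron-like (0.0132) and dividing-like cells (0.022), and in cells like layer 5 pyramidal tract neurons with no filter, with the replicate block (0.0239), and without control 2 or cKO 1. Igf1 and Igfbp5 in cells like layer 6b or subplate neurons passed with no filter, with the block and without cKO 2. The sign turned over all GTE cells for Igf1r (0.04 with the replicate block, 0.38 with library totals, 0.03 with the crossed pairing, 0.23 without the highest-count cells), Igfbp2 (0.01 with the block, 0.39 with totals, 0.01 crossed) and Igfbp4 (0.22 with totals), and for Igfbp2 in GTE astrocyte-like cells (-0.02 with RLE factors, -0.19 without the highest-count cells). The cause was not tested. When a library was left out, D1Tom fold changes over all cells ran from -0.39 to 0.20 for Igf1, -0.27 to 0.15 for Igf1r, -0.16 to 0.66 for Igfbp2, -0.83 to 0.07 for Igfbp4 and -2.26 to 0.33 for Igfbp7. In GTE they ran from -1.40 to 0.09 for Igf1, -0.39 to 0.52 for Igf1r, -0.25 to 0.43 for Igf2r, -0.81 to 0.94 for Igfbp2 and -0.65 to 0.54 for Igfbp4. In D1Tom types they ran from -0.33 to 0.09 for Igf1r in cluster 3, -0.58 to 0.39 for Igfbp2 in astrocyte-like cells, -0.78 to 0.21 for Igfbp3 in the medial type, -0.52 to 0.29 for Igfbp4 in oligodendrocyte precursor-like cells, -0.91 to 0.47 for Igfbp5 in cluster 3 and -0.43 to 1.18 for Igfbpl1 in the caudal type. In GTE types they ran from -6.83 to 0.27 for Igf1 in cluster 3, -0.77 to 1.48 for Igfbp2 in astrocyte-like cells and -0.11 to 1.31 for Igfbp3 in dividing-like cells. For the difference between sorts Igfbpl1 ran from -1.13 to 0.39. The alternative without the highest-count cells was not run for layer 5 pyramidal tract neuron-like cells, which then number under 30 in a library.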
